A study of Homo sapiens with 3 samples.

Results

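The untreated control array described the basal transcript profile of PANC-1, an established line derived from a human ductal adenocarcinoma of the pancreas. It was 1 of 3 arrays in the study. The other arrays carried RNA of cells exposed for 24 h to cantharidin, at 20 µM, or to okadaic acid, for which the labels can be read as giving the same dose or none, and neither entered any value below. The control cells had received no inhibitor, had been grown in DMEM with 10% fetal calf serum, and had no genetic change beyond those of the line itself, as far as the labels state. The labels do not say whether the control received solvent. With 1 control array, no test across samples was possible, and every value below is a description of that array.

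Spots with an outlier flag were dropped, and members were all non-control probes with any spot remaining, which gave 34106 of 34127 probes. Of these, 25755 probes matched a current gene symbol, for 19728 genes, and each gene was represented by its brightest probe. A level is the log2 of the processed intensity minus the 75th percentile of the array, so that level 0 corresponds to an intensity of 782. The brightest probes of 15729 genes (79.7%) were well above background by the scanner software's own flag, and 3999 were not. The flag overlapped slightly on the scale of levels: the lowest gene that passed it had a level of -4.48, and the highest that failed had -4.08. The median level of all genes was -1.65, an intensity of 249, and the brightest spot reached 438598 without saturation.

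That flag was permissive. Olfactory receptor genes, which serve smell in the nasal epithelium and are silent in most other tissues, passed it in 162 of 353 cases (45.9%), with a median level of -4.58. The 95th percentile of these receptors, a level of -1.04 or an intensity of 381, was therefore used as a second and stricter mark and is called the olfactory receptor limit. It was chosen after the data were seen. Above it lay 8620 genes (43.7%), the lowest of them at -1.0383 and the first gene under it at -1.0389. By design 18 olfactory receptor genes also exceeded it, the highest at 5.13, so bright probes also occurred among genes that are not known to act in these cells. Negative control spots had a median intensity of 7.69, and 3 of 153 were well above background.

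**Figure D1:**
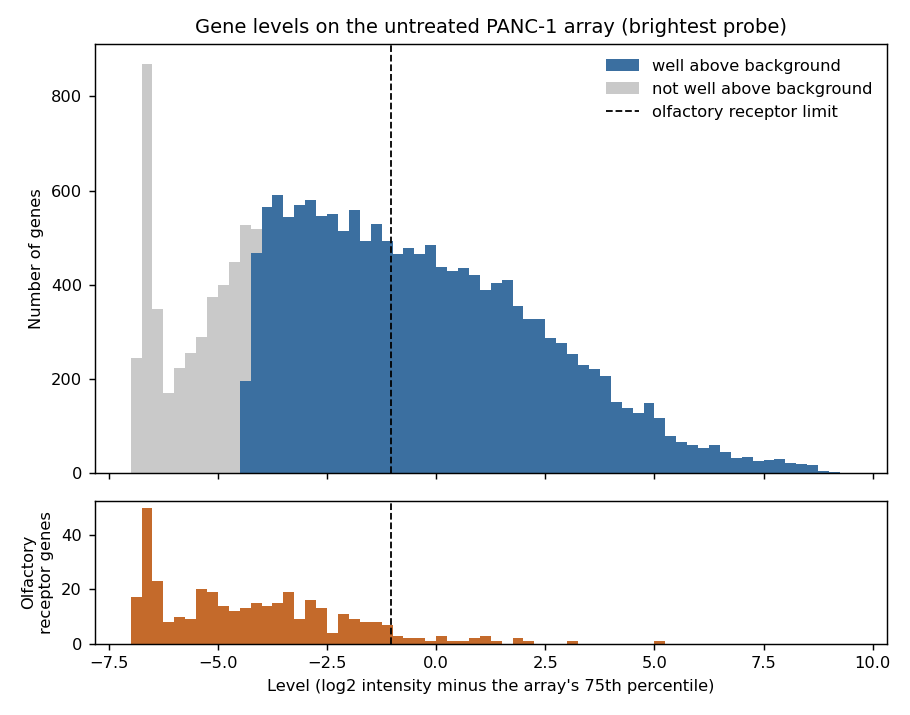
Number of genes by level (log2 intensity minus the 75th percentile of the array), with 15729 genes well above background in blue and 3999 others stacked in grey. The lower panel shows the 353 olfactory receptor genes on the same axis, and the dashed line is their 95th percentile at -1.04, which 8620 of all 19728 genes exceeded.

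The error of a level came from repeated spots and from separate probes of one gene. Among the 999 probes printed in 10 spots, the median SD between spots was 0.04 to 0.06 on the log2 scale for levels above -2, and 0.35 for levels below -4. Separate probes of one gene differed far more. Over the 4990 genes with several probes, the brightest and dimmest probe differed by a median of 2.19 on the log2 scale, or 4.56-fold, and by over 10-fold in 1537 genes (30.8%). The pooled SD between probes of a gene was 2.20. The order of genes below is therefore an order of probe signals. Genes whose levels lie within 2.20 of each other were not separated beyond that spread. A wider gap does not by itself separate genes either, as both levels carry the spread. Genes with more probes also had more chances of a bright one, with a median level of -2.06 for genes with 1 probe and 0.44 for genes with 4 or more.

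Cells of epithelial origin are held together by cadherin junctions, tight junctions and desmosomes, and their cytoskeleton is built on paired keratins. Carcinoma cells can lose these features and take on vimentin filaments, N-cadherin and matrix enzymes, a shift known as the epithelial-mesenchymal transition (EMT). Pancreatic ductal carcinomas are further sorted into a classical type, with gastrointestinal secretory genes, and a basal-like type, with keratins of stratified epithelium. PANC-1 is widely used as a poorly differentiated model of this cancer.

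The brightest probes were those of the protein synthesis machinery. RPLP2, an acidic protein of the ribosomal stalk, led all genes at a level of 9.13. It was followed by LGALS1, a secreted galectin that binds cell surface sugars, at 8.87, and by MT2A, a metal-binding metallothionein, also at 8.87. ZFP36, which binds AU-rich elements and speeds mRNA decay, was at 8.87 and EEF1A1, the elongation factor that delivers tRNA to the ribosome, at 8.81. FBL, the methyltransferase fibrillarin of the nucleolus, read 8.80 and S100A6, a calcium-binding protein of cycling cells, 8.74. Next came RPS2 at 8.74, RPL19 at 8.72, and POLR2L, a subunit shared by the nuclear RNA polymerases, at 8.70. Further genes of the first 20 were RPS27, RPL31, RPLP1, VIM, RPS20, RPS16, RPL39, ACTB and RPS18, between 8.68 and 8.52. The whole range of these 20 genes was thus narrower than the spread between probes of one gene, and 14 of them had a single probe. Where a second probe existed it could be lower, as for EEF1A1, whose 5 probes reached down to 6.60, and ACTB, the cytoplasmic actin, whose other probe read 7.46 with an SD of 0.06 over 10 spots.

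Ribosomal protein genes filled 11 of the first 20 places and 58 of the first 100. Their median level was 8.06 over 77 measured genes, and 76 of the 77 were among the first 1000. The exception was RPL27A, a protein of the large subunit, whose only probe read -3.07; it was picked out after its value was seen. The 100 brightest genes held 26.7% of the signal summed over the brightest probes, and the first 1000 held 72.1%. As many ribosomal protein genes have processed pseudogenes of nearly the same sequence, part of such a signal may come from related transcripts, which was not tested.

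Messenger RNAs of the translation machinery commonly begin with a C followed by an unbroken run of pyrimidines, the 5′ terminal oligopyrimidine tract. The start regions of RPLP2 and EEF1A1 are shown because these were the brightest ribosomal and elongation factor genes and both carry such a tract. Capitals mark the run of C and T that begins at the annotated start, 13 bases long in RPLP2 and 7 in EEF1A1. The sequences are RefSeq promoters of build GRCh38.p14, from 250 bases before the start to 30 bases after it, read on the strand of the gene, at chr11:809717-809996 (plus strand) and chr6:73521003-73521282 (minus strand).
RPLP2: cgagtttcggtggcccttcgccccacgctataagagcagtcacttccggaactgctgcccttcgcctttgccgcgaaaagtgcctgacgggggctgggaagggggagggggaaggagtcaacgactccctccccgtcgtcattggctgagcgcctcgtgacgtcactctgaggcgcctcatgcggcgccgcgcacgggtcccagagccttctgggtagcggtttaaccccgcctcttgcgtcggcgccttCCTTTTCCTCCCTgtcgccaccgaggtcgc
EEF1A1: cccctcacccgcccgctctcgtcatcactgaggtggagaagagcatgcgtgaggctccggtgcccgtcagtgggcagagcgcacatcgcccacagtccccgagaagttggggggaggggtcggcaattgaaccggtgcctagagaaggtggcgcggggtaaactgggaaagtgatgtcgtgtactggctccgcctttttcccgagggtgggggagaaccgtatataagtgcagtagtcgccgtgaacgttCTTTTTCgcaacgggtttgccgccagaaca

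A C at the annotated start followed by at least 4 bases that are each C or T was found in 46 of the 62 ribosomal protein genes with a listed promoter (74.2%), out of 77 measured. The word was searched on the strand of the gene only, and it stood in 6.30% of all measured genes with a listed promoter and in 4.07% of the 35116 promoters of the table. Within 5 bases of the start it was found for 53 of the 62 genes, against 28.1% of measured genes with a listed promoter and 21.1% of all promoters. These counts describe sequence letters and were not used to rank any gene.

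Metallothioneins, small cysteine-rich proteins that bind zinc and copper, were bright as a family. Besides MT2A, MT1L read 7.98, MT1A 7.92, MT1H 7.62, MT1X 7.51 and MT1B 7.46, all above the limit. MT1E at 7.03, MT1M at 5.76 and MT3 at 3.48 also lay above it. MT1L is annotated as a transcribed pseudogene. By contrast, MT1G read -2.79 and MT4, a form of stratified epithelium, was not well above background. These relatives of MT2A were named after their values were seen. The coding sequences of metallothionein genes are known to be much alike, and whether the probes of this family shared signal was not tested. MT1F, at 1.08, and MT1G stood apart from the brighter members. The second probe of MT1H read -4.68. The region before the MT2A gene is shown as an example of a promoter rich in metal response words. Capitals mark TGCNCNC on either strand, which occurred 7 times in the 250 bases before the start, with no overlap, while 0.0854% of all promoters held 7 or more. It lies at chr16:56608334-56608613 (plus strand, GRCh38.p14).
MT2A: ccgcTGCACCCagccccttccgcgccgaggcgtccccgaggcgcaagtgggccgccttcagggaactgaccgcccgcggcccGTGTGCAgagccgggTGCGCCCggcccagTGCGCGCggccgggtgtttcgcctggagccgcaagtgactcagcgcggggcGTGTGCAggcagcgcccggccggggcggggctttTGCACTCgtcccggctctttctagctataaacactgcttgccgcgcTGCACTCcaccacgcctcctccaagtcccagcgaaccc

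Simple epithelial keratins were bright. KRT18 and KRT8, the pair that forms the filaments of single-layered epithelia, had levels of 6.50 and 6.05, and KRT7 of ductal epithelium read 4.67. KRT19, the keratin used to mark pancreatic ducts, was lower at 1.68, and KRT20, an intestinal keratin, was at -2.91, under the limit. In all, 4 of 5 simple keratins exceeded the limit, against 43.7% of all genes, and the median was 4.67, against -1.65 over all genes. Second probes of KRT18 and KRT8 read 3.29 and 0.62, so both genes stayed above the limit with either probe. Of 12 keratins of stratified epithelium, 3 exceeded the limit (25%), namely KRT10 at 5.28, KRT15 at 0.07 and KRT4 at -0.99. The defining basal keratins were low: KRT5 had a level of -4.30, and KRT14 and KRT17 were not well above background.

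Junction genes were split. SPINT2, a membrane inhibitor of serine proteases, read 7.69, the tight junction protein CLDN4 read 5.67 and F11R, a junctional adhesion molecule, 5.25. JUP, the plakoglobin of desmosomes and adherens junctions, followed at 3.20, CLDN7 at 2.37 and PKP3, a desmosomal plakophilin, at 1.96. EPCAM, an adhesion molecule of most carcinomas, was at 0.72. CDH1, the E-cadherin of adherens junctions, had a level of -2.23, an intensity of 167, which was well above background but under the limit. RAB25, an epithelial trafficking GTPase, was not well above background. Of 29 measured junction and polarity genes, 24 were well above background and 13 exceeded the limit (44.8%), close to the share of all genes.

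The factors that maintain the epithelial programme were dim. GRHL2, which activates junction genes, had a level of -2.95, the splicing regulator ESRP1 had -3.03 and OVOL2, a repressor of mesenchymal genes, -3.09. Only ESRP2 at -0.02, ELF3 at -0.14 and KLF5 at -0.98 exceeded the limit among the 12 genes of this list, and TP63, EHF and OVOL1 were not well above background. These last genes, like most other genes named below only for a faint signal, were picked after their values were seen. The median of the list was -2.99, and its share above the limit was 25%, against 43.7% of all genes.

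Among mesenchymal genes a few structural members were very bright and many were dim. VIM, the intermediate filament vimentin, had a level of 8.64 and rank 15 of all genes. TPM2, a tropomyosin of actin filaments, read 7.05, the matrix protein TGFBI 6.62 and the calcium-binding S100A4 6.13. AXL, a receptor kinase common in mesenchymal-type tumours, read 3.76 and the fibrillar collagen COL5A2 3.59. CDH2, N-cadherin, had probes at 2.68 and -0.26. FN1, the matrix protein fibronectin, was not well above background with its single probe at -4.50. Of the 32 measured genes, 23 were well above background (71.9%, against 79.7% of all genes) and 16 exceeded the limit (50%, against 43.7%). Genes typical of fibroblasts lay on both sides of the limit. The collagens COL5A1 and COL6A1 read 1.99 and 1.79, the matrix protein SPARC -0.33, COL1A1 -0.57 and the surface antigen THY1 -0.76. The other probe of COL5A1 read -3.33, under the limit. DCN, COL3A1 and ACTA2 were well above background but under the limit, and LUM, FAP, POSTN, PDGFRA and PDGFRB were not well above background.

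VIM is shown for comparison with the translation genes. In the same window of GRCh38.p14, at chr10:17227991-17228270 (plus strand), it starts with a purine and has no tract. Capitals mark GGGCGG or its complement CCGCCC, the GC box, which stood once before the start here and at least once in 42.6% of all promoters.
VIM: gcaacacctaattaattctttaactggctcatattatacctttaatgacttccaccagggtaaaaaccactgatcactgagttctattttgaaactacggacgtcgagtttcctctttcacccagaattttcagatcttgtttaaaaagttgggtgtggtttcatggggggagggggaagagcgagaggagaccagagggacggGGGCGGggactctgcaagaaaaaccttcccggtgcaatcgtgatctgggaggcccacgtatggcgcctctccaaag

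Transcription factors that drive the EMT were mostly low. SNAI1, a repressor of E-cadherin, read 2.69 and was the brightest of the 12. ZEB1, a repressor of epithelial genes, gave 0.54 with one probe, while its other probe, at -4.78, was not well above background. SOX4 at -0.62 was the other member past the limit. TWIST1 had a level of -2.80 and ZEB2 of -4.14, and SNAI2 was not well above background. The list had 11 of 12 members well above background (91.7%, against 79.7% of all genes). Only 3 exceeded the limit (25%, against 43.7% of all genes), and the median was -3.20.

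**Figure D2:**
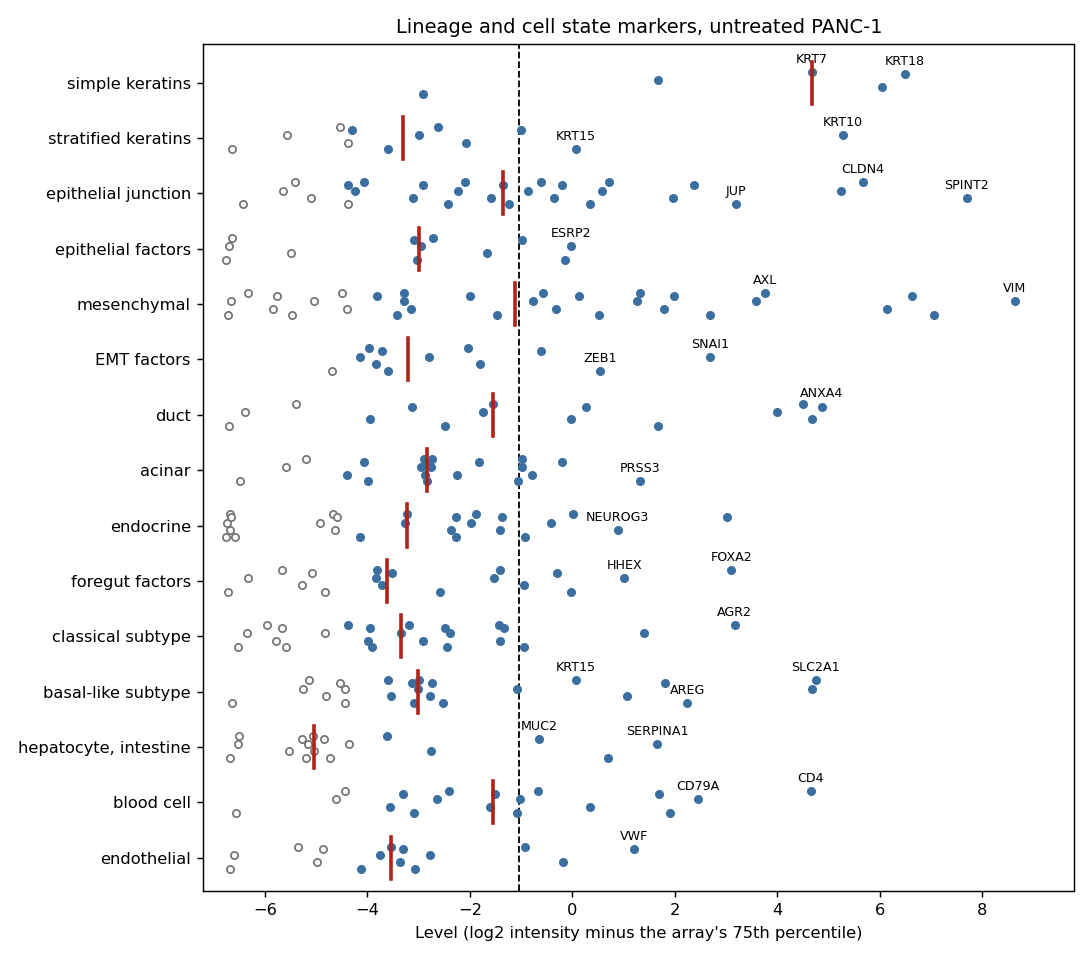
Level of each measured gene of 15 marker lists on the untreated array (log2 intensity minus the 75th percentile), with filled points for genes well above background, open points for the others, and a red bar at the median of each list. The dashed line is the olfactory receptor limit at -1.04, and some of the brightest members are labelled. Simple keratins have the highest median, 4.67, and hepatocyte and intestine genes the lowest, -5.03.

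Markers of the pancreatic duct were present in part. ANXA4, an annexin of ductal cells, read 4.86, the surface glycoprotein CD24 read 4.50 and SOX9, the factor that maintains duct identity, 3.98. The mucin MUC1 was at -0.03, and its other probe at -3.26. CFTR, the chloride channel of duct cells, was not well above background. Of 15 duct genes, 12 were well above background and 7 exceeded the limit (46.7%), again near the share of all genes. Among the defining duct genes, KRT19 and SOX9 lay above the limit, and CFTR was not well above background.

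Genes of the other pancreatic compartments were lower. Acinar genes had 5 of 21 members above the limit (23.8%, against 43.7% of all genes) and a median of -2.83. PRSS3, the trypsin that is also made outside the pancreas, read 1.33 and the lipase CEL -0.21, with its other probe at -3.37. The acinar factor PTF1A was at -2.24 and trypsinogen PRSS1 at -2.83, and the enzymes CPA1 and PNLIP were not well above background. Endocrine genes had 5 of 25 above the limit (20.0%) and a median of -3.23. NEUROG3, the factor that starts the endocrine programme, read 0.89 and INS, insulin, 0.02, each from a single probe. GCG, glucagon, had a level of -1.97 and a second probe not well above background, and CHGA, SST, NEUROD1 and INSM1 were not well above background.

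Foregut factors were mostly dim. FOXA2, a pioneer factor of endoderm, stood out at 3.11, with HHEX at 1.02, GATA4 at -0.03, MNX1 at -0.30 and GATA6 at -0.95 above the limit. The other probes of GATA4 read -1.15 and -3.06. PDX1, the master factor of the pancreas, and HNF4A, of the gut and liver, were not well above background. Of the 18 genes, 5 exceeded the limit (27.8%, against 43.7% of all genes), and the median was -3.62.

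Neither tumour subtype list stood above all genes, of which 43.7% exceeded the limit. Of 23 classical genes, 3 exceeded the limit (13.0%): AGR2, a disulfide isomerase of secretory cells, at 3.17, the trefoil peptide TFF1 at 1.40, and GATA6. LGALS4 at -2.40 and CEACAM6 at -3.91 were under it. Of 23 basal-like genes, 6 exceeded it (26.1%), led by the glucose transporter SLC2A1 at 4.75 and KRT7 at 4.67. AREG, a ligand of the EGF receptor, read 2.24, the protease CTSV 1.81 and S100A2 1.06. KRT6A was at -3.0 and KRT17 not well above background. The medians of the lists were -3.35 and -3.02, and the difference between them was not tested.

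Lists for other cell types gave unequal results. Of the hepatocyte and intestine genes, 5 of 17 were well above background (29.4%, against 79.7% of all genes), with ALB, CDX2 and VIL1 among those that were not. SERPINA1 at 1.66, CDX1 at 0.69 and MUC2 at -0.65 exceeded the limit. The other probe of CDX1 read -3.53. The other probes of MUC2 read -0.996, -4.48 and -6.72, of which the last pair were not well above background. Blood cell genes passed more often, though their share above the limit stayed under the 43.7% of all genes. Of 18 measured, 15 were well above background and 7 exceeded the limit (38.9%), among them CD4, a T cell coreceptor, at 4.65, CD79A of B cells at 2.46, CD68 at 1.91 and CD14 at 1.70. HBB, beta globin, was not well above background. PTPRC, the pan-leukocyte marker CD45, had 4 probes at -1.07, -4.15, -4.91 and -4.97, of which the last pair were not well above background, and CD3E read -1.60. Endothelial genes had 3 of 15 above the limit, with VWF at 1.21, ESAM at -0.17 and CDH5 at -0.93, and PECAM1 at -4.12. Whether the bright probes in these lists measured their named transcript was not tested.

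The driver genes of pancreatic cancer gave 8 of 13 above the limit (61.5%, against 43.7% of all genes). MYC, a growth-promoting transcription factor, read 6.82. The tumour suppressor SMAD4 gave -0.47. CDKN2A, the inhibitor of cyclin-dependent kinases that is known to be deleted in PANC-1, gave 1.73 with one probe and -3.17 with the other. MTAP, its neighbour in the genome, gave 1.71 with one probe and was not well above background with the other two, and CDKN2B, the adjoining inhibitor gene, read -4.11. What the brighter probes of CDKN2A and MTAP bound was not tested. BRCA2 and RNF43 were not well above background.

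**Figure D3:**
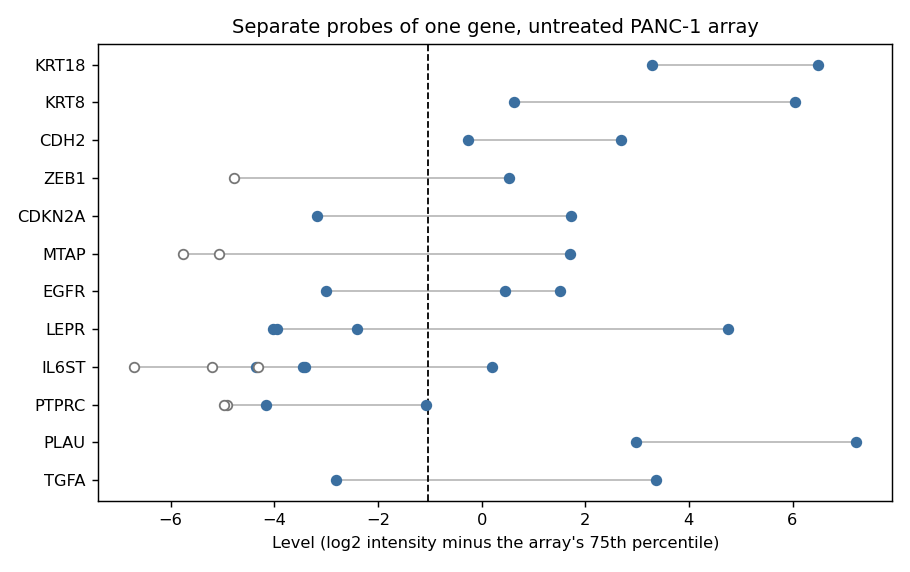
Levels of the separate probes of 12 genes on the untreated array (log2 intensity minus the 75th percentile), with a grey line joining the probes of a gene, filled points for probes well above background and open points for the others. The dashed line is the olfactory receptor limit at -1.04. CDKN2A spans 1.73 to -3.17 and LEPR 4.76 to -4.02, so a single probe could place such a gene on either side of the limit.

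Surface proteins of adhesion, antigen display and nutrient uptake were bright. CD151, a tetraspanin that partners integrins, read 8.16, and B2M, the light chain of class I antigens, read 7.18. HLA-B, HLA-C and the tetraspanin CD81 followed at 6.50, 6.13 and 6.02. CD44, the hyaluronan receptor, was at 5.53, the transferrin receptor TFRC at 3.91 and NT5E, an ectonucleotidase, at 2.96. Of 45 adhesion and nutrient proteins, 35 exceeded the limit (77.8%) and the median was 2.02, against 43.7% and -1.65 over all genes. MSLN, the tumour antigen mesothelin, was at -4.18, and VCAM1 and PROM1 were not well above background.

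Integrins, the receptors for matrix, had 11 of 25 subunits above the limit (44.0%), near the 43.7% of all genes. ITGB5 read 4.32, ITGA3 3.22, ITGB1 3.16, ITGAV 2.69, ITGA6 2.68 and ITGA5 2.58. ITGB4, the partner of alpha 6 in hemidesmosomes, was at 2.38. ITGB6, whose dimer with alpha V activates latent TGF-beta, was not well above background. ITGAE, which pairs with beta 7 to bind E-cadherin, read 2.45, and ITGA10, a collagen-binding chain, 0.87.

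Receptor tyrosine kinases gave 21 of 55 above the limit (38.2%, against 43.7% of all genes) and a median of -2.30. AXL was the brightest at 3.76, before the Wnt coreceptor RYK at 3.36, EPHA2 of the ephrin receptors at 3.26 and the collagen receptor DDR1 at 2.60, whose other probe read -4.12. TYRO3, a relative of AXL, read 2.09 and LTK 1.82. IGF1R was at 1.63 and ERBB2 and MET at 0.74 and 0.33. EGFR, the target of erlotinib, had 3 probes, at 1.51 with an SD of 0.04 over 10 spots, 0.45 and -3.01. These last kinases lay within 2.20 of each other by their brightest probes and were not separated. The PDGF receptors, KIT, ALK and ROS1 were not well above background.

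Receptors of the TGF-beta family were mostly dim, with 4 of 14 above the limit (28.6%, against 43.7% of all genes). ACVR1, an activin and BMP receptor, read 1.91, TGFBR2 0.78, BMPR1A 0.21 and the coreceptor ENG -1.03. TGFBR1, the kinase that TGFBR2 must pair with, was not well above background. Notch and Wnt receptors were higher as a list. Of 19, 13 exceeded the limit (68.4%, against 43.7% of all genes), and the median was -0.01. LRP5, a Wnt coreceptor, led at 3.02, followed by NOTCH2 at 2.43, NOTCH3 at 1.92, FZD2 at 1.84 and LGR4 at 1.78. LRP6 read 0.51 and FZD6 -0.01.

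Death and TNF receptors had 7 of 20 above the limit (35.0%, against 43.7% of all genes). TNFRSF12A, the receptor of the cytokine TWEAK, read 3.68, TNFRSF10B, a receptor of the death ligand TRAIL, 3.46 and the TNF receptor TNFRSF1A 2.52. FAS was at -1.26, under the limit. Cytokine receptors gave 14 of 33 above the limit (42.4%), near the share of all genes. Their brightest member depended on the probe: LEPR, the leptin receptor, read 4.76 with one probe and between -2.40 and -4.02 with the other 3. IL13RA1 read 4.29, IFNGR2 and IFNGR1, the chains for interferon gamma, 3.26 and 1.94, and IL4R 0.28. IL6ST, the signalling chain for interleukin 6, had 7 probes from 0.20 to -6.70, and IL6R was not well above background.

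G protein-coupled receptors were dim as a list, with 12 of 46 above the limit (26.1%, against 43.7% of all genes). Their median was -3.54. F2RL1, a receptor cut open by trypsin, read 4.32, the adhesion receptors ADGRE5 and ADGRG1 4.11 and 3.72, and ADORA2B, for adenosine, 3.56. PTGER4, for prostaglandin E2, read 2.07 and NTSR1, the neurotensin receptor, 1.01. F2R, the thrombin receptor, was at 0.23. CXCR4, a chemokine receptor, was at -3.41, and ACKR3, CCR1 and CXCR6 were not well above background.

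**Figure D4:**
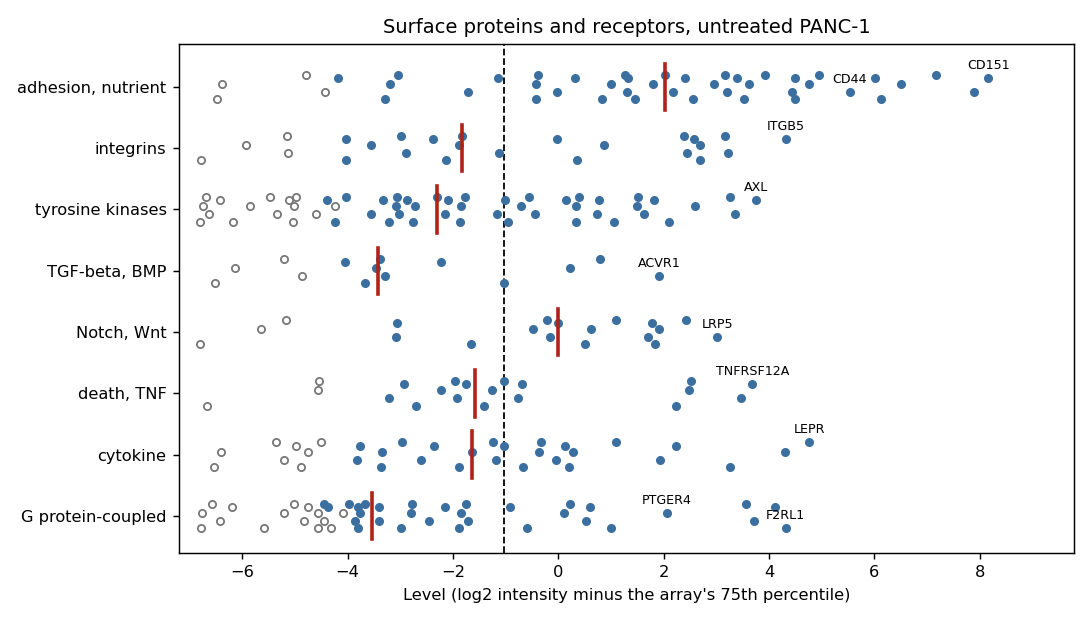
Level of each measured gene of 8 surface protein and receptor lists on the untreated array (log2 intensity minus the 75th percentile), with filled points for genes well above background, open points for the others, and a red bar at the median. The dashed line is the olfactory receptor limit at -1.04. Adhesion and nutrient proteins have the highest median, 2.02, and G protein-coupled receptors the lowest, -3.54.

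Secreted products began with growth factors, of which 23 of 49 exceeded the limit (46.9%), near the 43.7% of all genes. GRN, progranulin, read 5.93, ANGPTL4, an inhibitor of lipoprotein lipase, 5.74 and VEGFB 4.96. CCN1, a matricellular integrin ligand, was at 4.77, HDGF at 3.94 and IGF2 at 3.43, although the second probe of IGF2 read -2.63. TGFA, a ligand of the EGF receptor, gave 3.37 and -2.80 with its probes. VEGFA, the main angiogenic factor, was at 1.22 and 0.61, MDK at 1.46 and PGF at 0.85. FGF2, KITLG and CSF3 were not well above background.

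GDF15, a stress-induced cytokine of the TGF-beta family, was the brightest gene of its list at 8.04, rank 59 of all genes. LTBP4 and LTBP1, which store latent TGF-beta in the matrix, followed at 4.85 and 2.66, with BMP7 at 2.08, BMP6 at 1.95 and BMP8B at 1.36. Other probes read -0.84 and -2.56 for BMP7 and -4.04 for BMP8B. TGFB1 read 1.1, TGFB2 -2.74 and INHBA, a subunit of activin A, -3.83. In this list 13 of 31 genes exceeded the limit (41.9%), near the 43.7% of all genes.

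Most cytokines were dim. MIF, a cytokine and tautomerase made by most cells, read 7.93, rank 73. After it CXCL1, a neutrophil attractant, read 2.32, CCL2, a monocyte attractant, 1.92, IL32 1.78, IL18 1.11 and CXCL2 0.57. CXCL8 was at -1.31, just under the limit, and IL6 at -3.70. Only 9 of 42 exceeded the limit (21.4%), less than the 43.7% of all genes, while 32 were well above background.

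Of the genes in the matrix list, COL18A1, the collagen that contains endostatin, read 7.34, the heparan sulfate proteoglycan HSPG2 4.74, and the laminin chains LAMB2 and LAMC1 4.64 and 3.91. NID1, which links laminin to collagen, was at 3.99 and FBLN1, a fibulin, at 3.90. COL13A1, a transmembrane collagen, read 3.42, the fibrillar COL27A1 3.37 and AGRN, a proteoglycan, 2.95. THBS1, thrombospondin 1, was at 0.01, LAMB3 at -1.08 and COL4A1 at -1.97. Of 45 genes, 23 exceeded the limit (51.1%, against 43.7% of all genes), and the fibrillins and COL17A1 were not well above background. The level of HSPG2 rested on 1 of its 4 probes, as the others read -2.79, -3.59 and -4.13.

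Among the proteases PLAU, the urokinase that activates plasminogen, read 7.23 with an SD of 0.08 over 10 spots, and its second probe 2.98. Its receptor PLAUR was at -0.38. CTSB, a lysosomal and secreted cathepsin, read 5.22, ADAM15 4.91, HTRA1 4.55, CTSA 3.99 and PRSS23 3.70. The other probe of ADAM15 read -0.97. MMP1, an interstitial collagenase, was at 2.31, PLAT, the tissue activator of plasminogen, at -1.23 and MMP7, matrilysin, at -3.93. In all 14 of 32 proteases exceeded the limit, about the 43.7% of all genes. Inhibitors gave 17 of 32 (53.1%), with SPINT2 at 7.69, the amyloid precursor APP, which carries a Kunitz domain, at 6.42, the cystatin CSTB at 6.38 and TIMP2 and TIMP1, inhibitors of metalloproteases, at 5.28 and 4.36. The other probe of APP read -0.65. SERPINH1, a collagen chaperone, read 4.76 and SERPINB6 4.43. TFPI, the inhibitor of tissue factor, was at 0.54.

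Among the remaining secreted proteins LGALS1 was followed by IGFBP7 at 6.59, the saposin precursor PSAP at 5.84, IGFBP2 and IGFBP4, which bind insulin-like growth factors, at 5.53 and 5.35, and LGALS3, a second galectin, at 5.03. IGFBP6 read 1.98 and DKK1, a Wnt antagonist, 0.57. LCN2, an iron-scavenging lipocalin, was at -2.75. This list had 19 of 36 genes above the limit (52.8%, against 43.7% of all genes) and a median of -0.19.

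**Figure D5:**
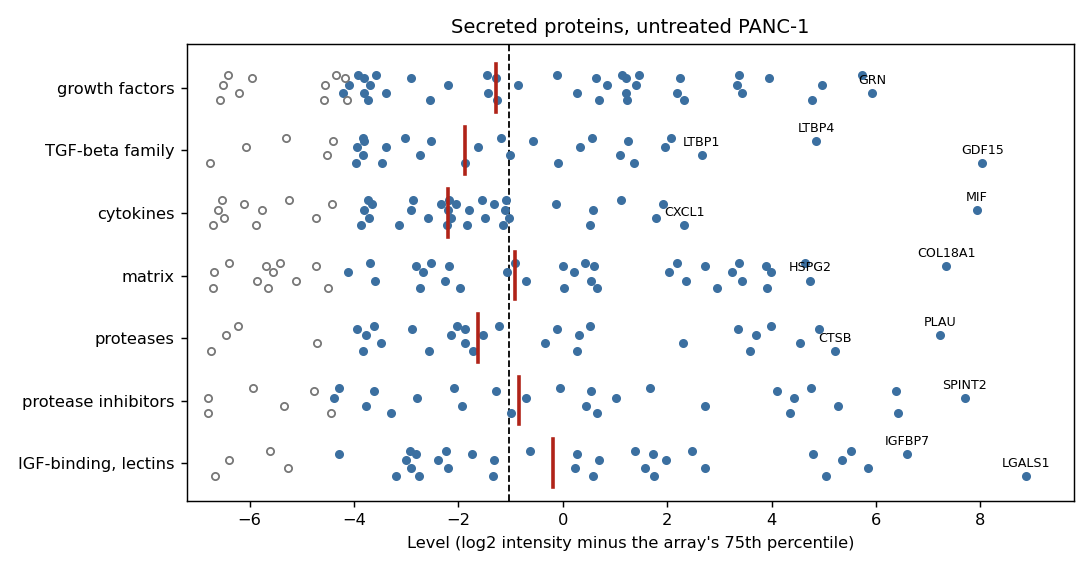
Level of each measured gene of 7 lists of secreted proteins on the untreated array (log2 intensity minus the 75th percentile), with filled points for genes well above background, open points for the others, and a red bar at the median. The dashed line is the olfactory receptor limit at -1.04. Cytokines have the lowest median, -2.20, with MIF alone at 7.93.

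The subunits of PP2A, the enzyme that the study's compounds inhibit, gave signal in untreated cells. PP2A is a trimer of a scaffold, a catalytic and a regulatory subunit that removes phosphate from many kinases. The catalytic subunits PPP2CA and PPP2CB had levels of 3.91 and 2.71, and the scaffolds PPP2R1A and PPP2R1B of 2.16 and -1.41. The other probe of PPP2R1B was not well above background. Of the 29 measured angiogenesis genes that the study examined, 23 were well above background and 13 exceeded the limit (44.8%) in untreated cells, led by COL18A1 and TIMP1, with BTG1 at 3.51, the complement regulator CD55 at 3.38, CXCL1 at 2.32 and SPHK1 at 1.93. The shares of this angiogenesis list were near those of all genes, of which 79.7% were well above background and 43.7% exceeded the limit. The study chose the angiogenesis list on these arrays, so its share is no independent evidence. Several of its members, such as CSF3, KITLG, IL1A, SERPINC1, TIE1 and CXCL14, were not well above background in these cells.

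All 15 reference genes exceeded the limit, among them GAPDH at 7.50 and TBP, the TATA-binding protein, at 0.23. Their median of 7.18 placed the usual normalisation genes near the top of the scale, and PPIA showed that they too varied by probe, with 5 probes from 8.16 to 1.23. By kind of gene, 81.4% of 18139 protein-coding genes and 56.9% of 1034 long non-coding genes were well above background, and 45.9% and 14.5% exceeded the limit. The long non-coding genes named here were chosen after their values were seen. FAM74A4 led at 6.91 and was followed by SNHG5, SNHG29, GAS5 and ZFAS1, at 6.91, 6.81, 6.66 and 6.47, which are hosts of small nucleolar RNAs.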

How the data were processed

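RNA of untreated PANC-1 cells, extracted with Trizol and labelled with Cy3, had been hybridised to an Agilent 1-colour array. The authors deposited the spot intensity values of the scanner software, Feature Extraction 11.0.1.1. The software, per the file headers, subtracted background from each intensity, removed trends over the array surface, and took probe annotation from hg19. Deposited flags of 0 or 1 marked outlier spots, saturation and signal above background. The authors also deposited normalized log2 values for 30923 probes, made in a way that is not given in the sources used here, and its control column was used as an alternative. Its rank correlation with the array was 0.9999 over 30904 shared probes, and none of the 3202 probes absent from it was well above background. The 2 columns of treated cells were not used.

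The log2 processed intensity of each probe was the mean of its unflagged spots, which removed 324 of 43118 spots and 21 probes, and the 75th percentile over probes was subtracted. A probe was well above background when most of its spots were, as were 24812 probes (72.7%). Probes were named by looking up their unversioned accessions among RefSeq transcripts of GRCh38.p14, and no coordinates were taken, since the annotation builds differ. The 8351 unmatched probes were not named. A gene took its brightest probe.

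The 34 gene lists held 806 genes, of which 794 were measured. Lists and members were chosen with earlier results of these data known. The text names the 20 brightest genes, the defining members of each list, its 6 highest members well above background, and members whose probes lay on both sides of detection. Other genes are said to be chosen after their values were seen. Values of some genes that this rule covers are not reported here. Start sequences are RefSeq promoters of GRCh38.p14, and motifs were searched as exact letters. No test or p-value was computed. The single array limits the precision of each value. The scripts were tested on simulated data. The alternatives were normexp background correction with an offset of 50 on the median spot signal, the median over probes of a gene, the 75th percentile of detected probes, the deposited table, the scanner's significance flag, any spot or at least 50% of the probes above background, outlier spots kept, and curated accessions only. The olfactory receptor limit was added after the data were seen. Software comprised Python 3.11.15 with numpy 2.4.6, pandas 2.3.3 and matplotlib 3.10.9, and R 4.3.3 with limma 3.58.1.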

Additional observations from a re-analysis of the deposited data

Results flagged for a closer look

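Of the 8351 probes that matched no gene symbol, 5085 were well above background (60.9%), and 1430 lay above the olfactory receptor limit. The brightest had a level of 8.79, within the range of the 20 brightest named genes. They were singled out because they lie outside every gene value of the report. For comparison, 3 of 153 negative control spots were well above background. The brightest negative control spot had an intensity of 149, under the olfactory receptor limit of 381. What the unmatched probes measure was not tested.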

How the results depend on the processing

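Of 247 recomputed counts and list medians, 224 stayed within 1.5 times the reported value, 23 moved further, and 0 of those reported as over 1.5-fold from all genes changed sign. Medians of lists are given here relative to the median of all genes of the same setting. Subtracting the percentile of detected probes shifts every level by the same constant, so such relative medians cannot move. Its medians of the 34 lists are counted among the 247 and the 224 values, and their agreement says nothing about robustness. The number of genes called present depended most on the mark, with 15729 well above background, 18470 by the scanner's significance flag and 8620 above the olfactory receptor limit. With the significance flag 14 hepatocyte and intestine genes passed in place of 5.

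Normexp correction, which lifts faint signals, drew list medians towards that of all genes: 5.70 for simple keratins (reported 6.32), -1.05 for stratified keratins, -0.93 for EMT factors, -0.94 for endocrine, -1.05 for foregut, -1.05 for classical, -1.16 for endothelial, -1.49 for hepatocyte and intestine, -1.04 for TGF-beta receptor and -1.06 for G protein-coupled receptor genes. Taking the median of a gene's probes gave 5.4 for simple keratins, -0.77 for cytokine receptors (reported 0.02) and 0.092 for matrix genes (reported 0.73). The deposited table gave -2.23 for EMT factors, -1.76 for acinar, -2.64 for foregut, -2.33 for classical, -2.0 for basal-like, -2.55 for endothelial, -2.48 for TGF-beta receptor and -2.50 for G protein-coupled receptor genes. Of the 20 brightest genes, 15 remained with normexp, 15 with the median over probes and 20 with the deposited table. Of 286 named genes, 74, 50 and, among 282 in the deposited table, 50 moved by over 1.5-fold against the median of all genes.

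Below the limit, levels rest on signals that overlap those of olfactory receptor genes, and they do not separate weak expression from no expression. A single array has no replicate, so variation between cultures is unknown. No paired analysis was possible because the result comes from no test.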
